A study of Mus musculus with 12 samples.

Results

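The comparison described here set Alkbh5-/- (KO) oocytes against wild-type (WT) oocytes at metaphase of the second meiotic division (MII). It used 4 of the 12 libraries of the series, 2 per genotype, chosen by the genotype and stage in their labels. Alkbh5 encodes a demethylase that removes N6-methyladenosine (m6A) from RNA. The KO mice carried a CRISPR-Cas9 deletion of exon 1 with the start codon in every cell, on a C57BL/6 background. Oocytes came from 3-week-old females primed with PMSG, were freed of cumulus cells and matured in culture from the germinal vesicle (GV) stage through germinal vesicle breakdown (GVBD) to MII, and a small pool went into each tube together with ERCC spike-in RNA. According to the study few KO oocytes extruded a polar body in culture, and the sources used here do not say which oocytes entered the KO MII pools, so the genotype and the stage actually reached cannot be told apart in these libraries. The study calls the replicates of a group biologically independent, and the labels do not say whether they came from separate females. The p-values measure the spread between these pools.

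A fully grown mouse oocyte is transcriptionally silent and lives on stored maternal transcripts. During maturation a large part of that store is deadenylated and degraded, while other transcripts are kept and translated for the egg and the early embryo. A transcript higher in KO than in WT at MII is therefore called retained here, and one lower in KO is called lost. Both words describe the level at MII only.

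The 4 MII libraries held 31402587 to 40247810 counts each. Levels are given as spike-in scaled counts, which are the deposited counts divided by the library's relative ERCC total. All 10 oocyte markers examined were detected in each MII library, with a summed level of 32908 and 33311 CPM (counts scaled to the library's total without ERCC sequences) in WT and 31025 and 38434 CPM in KO. The 16 markers of cumulus and granulosa cells summed to 42.1 to 78 CPM, and Amh, Foxl2 and Amhr2 stood at 0 in all 4. Markers of 2 other tissues were uneven within a genotype. The 5 hepatocyte markers summed to 346 CPM in WT replicate 1 and 123 CPM in KO replicate 2 but to 0 and 0.366 CPM in the other 2 libraries, and the 8 blood markers summed to 568 CPM in KO replicate 1 against 5.67 to 54.9 CPM in the other 3. Of the 4 keratinocyte markers, Krt5, Krt14 and Krt1 stood at 0 in all 4 libraries. Krt10 alone made up their sum, 23.4 and 25.1 CPM in WT and 12.6 and 11.1 CPM in KO.

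Alkbh5 itself had scaled counts of 5212 and 2817 in WT and 88 and 47 in KO. Its log2 fold change (KO minus WT) was -5.89 ± 0.99 (SE, n = 2 against 2; edgeR quasi-likelihood adjusted p = 3.6e-06), and the groups did not overlap. Of 17566 genes tested, 141 (0.803%) passed an adjusted p under 0.05 with at least a 2-fold difference, 88 of them (0.501%) higher and 53 (0.302%) lower in KO. Ribosomal protein genes made up 7 and oxidative phosphorylation genes 5 of the 88. The text below is about the 76 higher and 53 lower genes outside those 2 sets. The median log2 fold change of all genes was 0.30, and list medians are given relative to it unless stated otherwise. That median rested on single libraries, at -0.45 without KO replicate 1, 0.70 without KO replicate 2, 0.75 without WT replicate 1 and 0.03 without WT replicate 2.

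The retained genes were mostly transcripts whose level dropped between GV and MII in WT and much less in KO. Their median level at MII was 2.33% of the GV level in WT (71 genes with a GV level of at least 10 scaled counts) and 50.9% in KO (74 genes). Over all tested genes these medians were 50.2% and 47.5%. In WT, 60 of the 65 retained genes that could be tested passed as lower at MII than at GV, where 30.5% of all genes did. In KO, 1 of 75 did, March11, where 3.28% of all genes did. These comparisons share the MII libraries with the comparison that chose the genes, so they describe the genes and add no separate evidence. Both KO libraries were above both WT libraries for 22.1% of all genes tested and below both for 10.3%. Together these are the 32.4% of genes whose libraries did not overlap. The retained genes overlapped between genotypes in 8 of 76 cases, and KO replicate 1 was above KO replicate 2 for 69 of 76. Counts outside the ERCC sequences, per ERCC count, were 87.9 in KO replicate 1 and 54.7 in KO replicate 2. WT replicate 1 lay between them at 73.3, and WT replicate 2 lay below all of these. Scaled counts as a whole were thus higher in KO replicate 1. The share over all genes was not computed, so the 69 of 76 cannot be read as a trait of the retained genes.

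**Figure D1:**
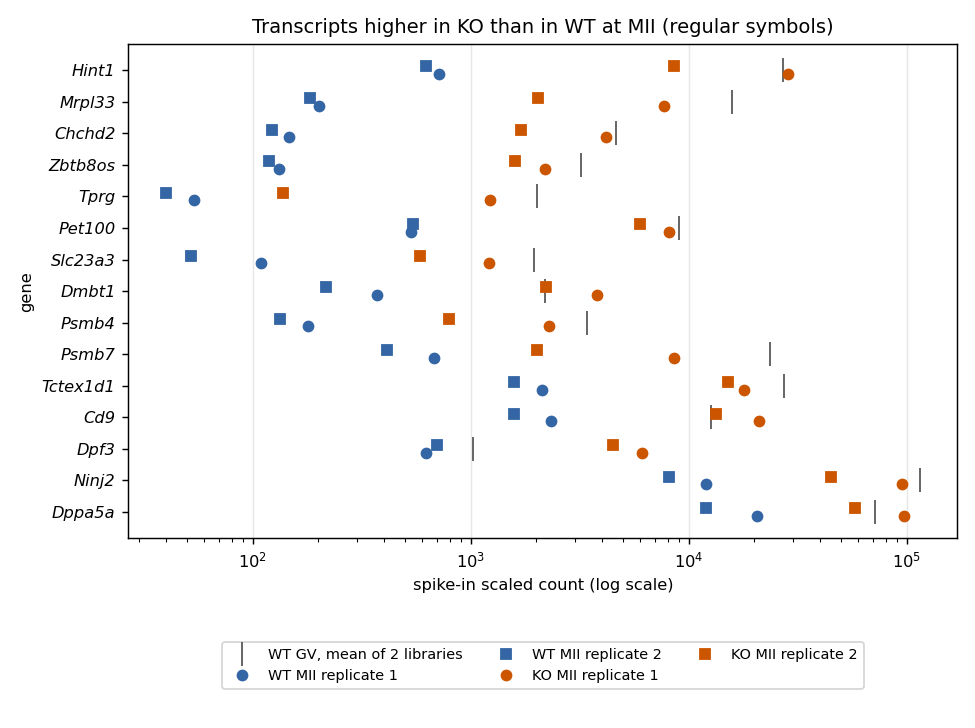
Spike-in scaled counts (log scale) of the 15 most abundant retained genes with a regular symbol that were present in both genotypes, with the 4 MII libraries as points and the mean of the 2 WT GV libraries as a vertical line. Both KO points lie right of both WT points in each gene, which was fixed in advance because genes with overlapping groups were left out. KO replicate 1 lies right of KO replicate 2 in each gene. In every gene but Dpf3 the WT GV mean lies nearer to a KO point than to either WT point on the log axis.

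The 15 most abundant retained genes with a regular symbol spanned several functions, with log2 fold changes from 2.25 to 4.79. Genes whose groups overlapped were left out of this ranking. So were genes with only a Gm, Rik or clone name. Some of the latter had higher levels, such as E330017A01Rik with 51693 and 32066 in WT and 286079 and 189704 in KO. In WT the 15 kept 1.22% to 64.8% of their GV level (median 4.58%), and in KO 13.5% to 105% (median 45.6%). The KO share rested on the library, with a median of 65.9% in KO replicate 1 and 32.6% in KO replicate 2. Of the 15, 8 encode proteins of under 200 codons. Their calls were checked in 13 alternative settings (other scalings, filters, tests and libraries left out). The call held in 3 of 13 for Dpf3 and Dppa5a and in 6 to 8 of 13 for the rest.

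A first group serves mitochondria. Mrpl33, a protein of the large mitochondrial ribosomal subunit, had scaled counts of 202 and 183 in WT and 7666 and 2043 in KO (log2 fold change 4.66 ± 0.92, edgeR adjusted p = 0.000228). Chchd2, a small protein of the intermembrane space that supports respiration, had 147 and 123 in WT and 4164 and 1706 in KO (4.44 ± 0.94, edgeR adjusted p = 0.00104). Pet100, which helps assemble cytochrome c oxidase, had 534 and 543 in WT and 8104 and 5946 in KO (3.70 ± 0.85, edgeR adjusted p = 0.00425). The groups were far apart in each of these genes. WT oocytes kept 5.99% of the GV level of Pet100 and KO oocytes 81.1%.

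A second group belongs to the proteasome, the protease that degrades ubiquitinated proteins. It is 2 of the 53 proteasome genes tested, where 0.501% of all genes passed as higher. The list as a whole was close to all genes, with 27 of 53 above the all-gene median and its own median 0.02 above it. Psmb7, a catalytic subunit of its core, had scaled counts of 677 and 412 in WT and 8551 and 2011 in KO (3.28 ± 0.85, edgeR adjusted p = 0.0213). Psmb4, a structural subunit of the same core, had 179 and 134 in WT and 2279 and 798 in KO (3.30 ± 0.92, edgeR adjusted p = 0.0459). KO oocytes kept 16.7% and 30.9% of the GV level of these 2 genes, and WT oocytes 2.3% and 4.58%. The KO share was 27% and 45.8% in KO replicate 1 and 6.35% and 16% in KO replicate 2. Psmb5, another catalytic subunit, had 495 and 281 in WT and 2435 and 1205 in KO but did not pass (2.23 ± 0.87, edgeR adjusted p = 0.306).

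A further group acts at the egg surface or is secreted. Cd9, the tetraspanin that eggs need to fuse with sperm, had 2341 and 1586 in WT and 20963 and 13309 in KO (3.13 ± 0.77, edgeR adjusted p = 0.0109). Its level in KO at MII was 90.1% of that at GV, while WT kept 15.6%. Ninj2, a cell surface adhesion protein, was among the most abundant retained transcripts, with 11985 and 8085 in WT and 95026 and 45093 in KO (2.80 ± 0.66, edgeR adjusted p = 0.00528). Dmbt1, a secreted scavenger receptor glycoprotein, had 372 and 216 in WT and 3787 and 2204 in KO (3.35 ± 0.89, edgeR adjusted p = 0.0274). Slc23a3, of the ascorbate and nucleobase transporter family, had 109 and 52 in WT and 1216 and 583 in KO (edgeR adjusted p = 0.0411).

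Single genes with other functions were also retained. Zbtb8os (archease), a cofactor of the tRNA splicing ligase, had 132 and 119 in WT and 2195 and 1596 in KO (3.92 ± 0.94, edgeR adjusted p = 0.00751). Dppa5a, an RNA-binding protein of pluripotent cells, had 20611 and 12033 in WT and 96935 and 57926 in KO (2.25 ± 0.63, edgeR adjusted p = 0.0465). Tctex1d1, of the dynein light chain family, had 2115 and 1586 in WT and 17977 and 15196 in KO (3.16 ± 0.77, edgeR adjusted p = 0.00996). Hint1, a nucleotide hydrolase, had 717 and 621 in WT and 28497 and 8534 in KO. It kept 2.46% of its GV level in WT and 42.8% in KO, at 65.9% in KO replicate 1 and 19.7% in KO replicate 2. Tprg had 54 and 40 in WT and 1223 and 138 in KO. It kept 2.33% of its GV level in WT, 24.3% in KO replicate 1 and 2.73% in KO replicate 2.

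Dpf3, a histone-reading subunit of the BAF chromatin remodelling complex, followed another course. It had 624 and 703 in WT and 6093 and 4488 in KO at MII (2.99 ± 0.84, edgeR adjusted p = 0.0475), yet WT oocytes kept 64.8% of their GV level. The difference stood at 2.30 at GV (edgeR adjusted p = 0.046) and 2.16 at GVBD (edgeR adjusted p = 0.031). It was the only 1 of the 15 that passed at either earlier stage.

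**Figure D2:**
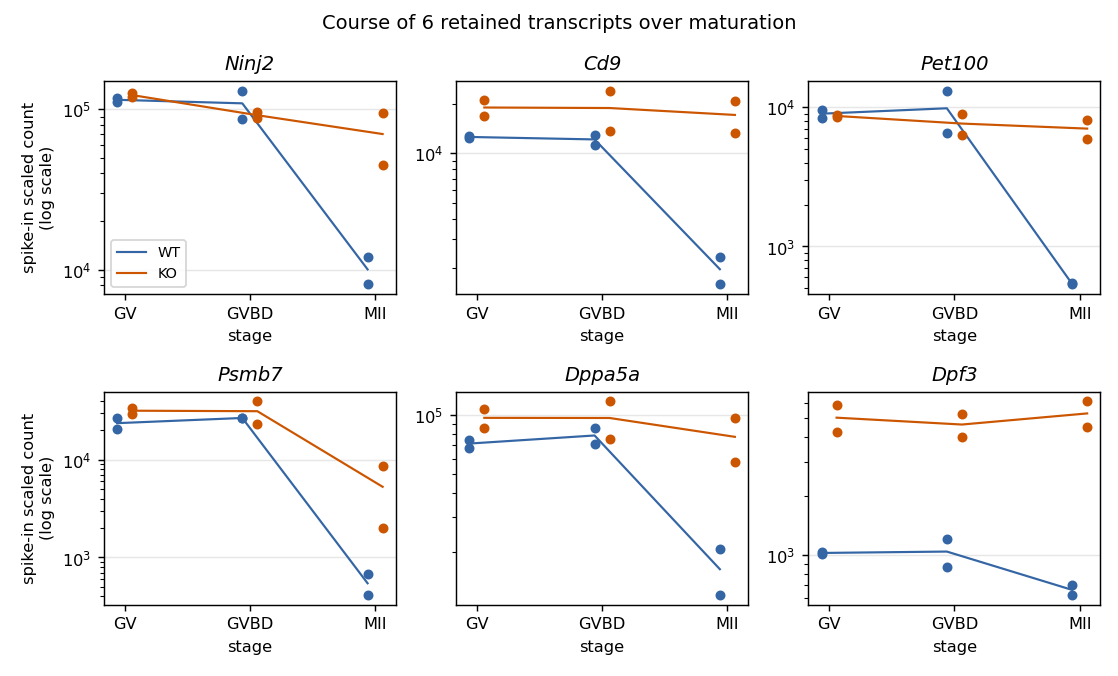
Spike-in scaled counts (log scale) at GV, GVBD and MII for 6 retained genes; points are libraries and lines join the means of 2 libraries in WT (blue) and KO (orange). In 5 genes the genotypes part between GVBD and MII, where the WT mean drops below the KO libraries, whereas Dpf3 is higher in KO at all 3 stages.

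Another class of retained genes was nearly absent from WT at MII. Of the 76 retained genes, 24 had at most 3 counts in each WT library. Among them Fgf8, a growth factor that oocytes secrete to their cumulus cells, had 0 and 0 scaled counts in WT and 46 and 23 in KO, which is at least 19-fold higher when WT is set to 3 counts per library (edgeR adjusted p = 0.0157). At GV it had stood at 157 and 157 in WT and 241 and 269 in KO. Zfp966, a zinc finger protein, had 0 and 0 in WT and 298 and 99 in KO, at least 110-fold higher (edgeR adjusted p = 9.44e-07), and at GVBD it had 405 and 189 in WT and 387 and 183 in KO. Serpinb9c, a serine protease inhibitor of the B clade, had 0 and 0 against 177 and 50, at least 63-fold higher (edgeR adjusted p = 1.17e-05). At GVBD it had 178 and 5 in WT and 5 and 203 in KO, so replicates of each genotype were far apart. In KO these 3 genes kept 13.6%, 102% and 49.8% of their mean GV level, and in WT no count of them was left. The KO GV libraries of Zfp966 were far apart, at 353 and 37, so its share is loosely fixed.

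The other genes of that class were rarer. Spag6, a protein of the sperm axoneme, reached 77 and 21 scaled counts in KO and Adam5, a membrane protein of the sperm lineage, 56 and 17, both with 0 in each WT library. Zfp973 had 0 and 1 in WT and 134 and 80 in KO, but WT GV libraries differed widely from each other at 3 and 204. Gm14305, a gene annotated on the same strand over Zfp973, had 42 and 31 in WT and 206 and 42 in KO, and reads shared by the 2 genes could have been split between them.

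Among immune genes, the chemokine Ccl2 passed as higher (5 and 18 in WT, 259 and 573 in KO, edgeR adjusted p = 0.00197). It was the only called member of the 94 tested genes for cytokines, chemokines and interferon response, whose median lay 0.18 below that of all genes. Zscan4e, of a zinc finger cluster switched on at the 2-cell stage, had 5 and 14 in WT and 118 and 251 in KO (4.20 ± 1.15, edgeR adjusted p = 0.0362). At GV it had 27 and 64 in WT and 455 and 90 in KO, where the test did not pass (2.58, edgeR adjusted p = 0.219).

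Some called genes did not separate the genotypes, and they were chosen for mention after their values were seen. Hba-a1, an alpha globin gene, had 71 and 197 in WT and 10722 and 7 in KO (edgeR adjusted p = 1.43e-05), and the near-identical copies Hba-a1 and Hba-a2 can share reads. Hba-a2, Hbb-bs, Hbb-bt and Alas2, the last an enzyme of haem synthesis in red cells, had the same form, and together these 5 blood genes summed to 199 and 640 in WT and to 30297 and 25.4 in KO. They were high in KO replicate 1 and not in KO replicate 2, and across the series they were high in 5 more libraries, WT GV replicate 2, both WT GVBD and both KO GV libraries, at 82496 to 222556. Spp1, a secreted phosphoprotein (44 and 10 in WT, 2204 and 17 in KO), and Usp49, a deubiquitinase (6 and 15 in WT, 584 and 8 in KO), were likewise high in KO replicate 1 only.

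Beyond single genes, 41 lists of genes with shared functions were compared. For each list and library the level is the median log2 change from the mean WT GV level, less the same median over all tested genes. By this measure both KO libraries stood above both WT libraries in 13 lists, below in 12 and overlapped in 16, and 26 lists held no gene called by edgeR, of which 12 held at least 1 called by DESeq2. When 1 library was left out, the median fold change of 19 of the 41 lists lay on the other side of that of all genes in at least 1 case, for 12 lists without KO replicate 1 and 7 without WT replicate 1. Over all genes, 5.14% were higher and 2.18% lower at an unadjusted p under 0.05, the background for the unadjusted counts below.

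**Figure D3:**
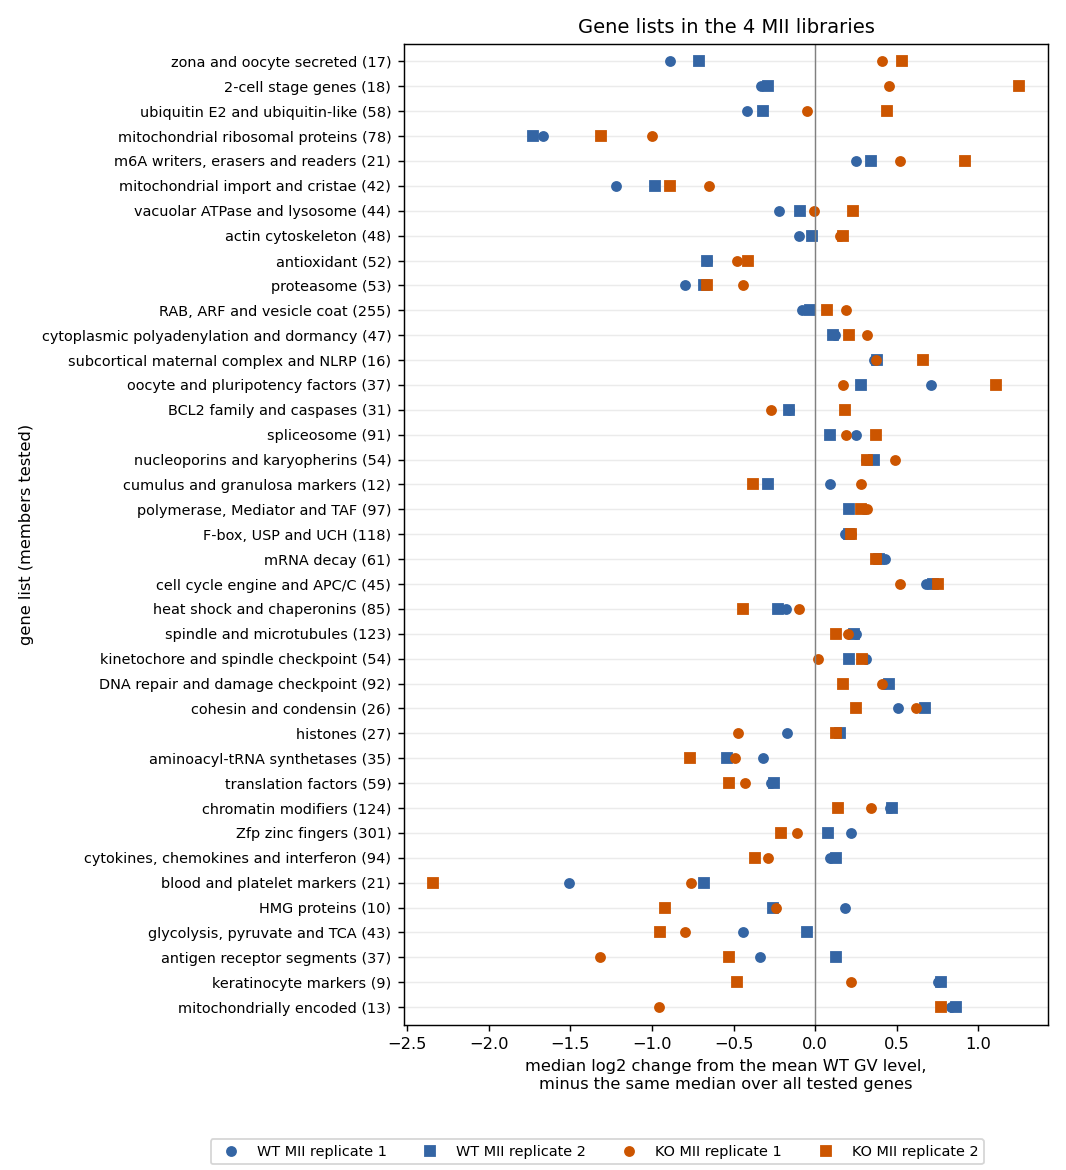
Level of 39 gene lists in the 4 MII libraries: the x axis is the median log2 change from the mean WT GV level minus the same median over all tested genes, with list names and numbers of tested members on the y axis. Zona and oocyte secreted genes lie near -0.8 in WT and 0.5 in KO at the top, mitochondrial ribosomal proteins lie below 0 in all 4 libraries, and the lists for RNA decay and meiosis lie close together in the 2 genotypes. Sarcomere and liver genes are left out because their range would compress the axis.

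The 17 zona pellucida and oocyte secreted genes had a median fold change 0.38 above that of all genes (0.32 to 0.71 when 1 library was left out). Their level was -0.89 and -0.71 in WT and 0.41 and 0.53 in KO. Of the 17, 8 had both KO libraries above both WT libraries, with none the other way. Over all genes tested these shares were 22.1% and 10.3%. Cd9 and Fgf8 passed. Zp2 and Zp3, the zona glycoproteins that sperm meet, did not, with log2 fold changes of 1.90 ± 0.66 (edgeR adjusted p = 0.198) and 1.91 ± 0.71 (edgeR adjusted p = 0.263). Zp2 had 14854 and 7280 in WT and 55414 and 27138 in KO. Oosp3, another oocyte secreted protein, was at -0.08 ± 0.57, with 95686 and 64983 in WT and 79463 and 72762 in KO.

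A pair of lists of nuclear genes for mitochondrial proteins stood below the level of all genes in both genotypes. The 78 mitochondrial ribosomal proteins stood at -1.67 and -1.73 in WT and -1.0 and -1.31 in KO, and 1 passed (Mrpl33) while 10 were higher at an unadjusted p under 0.05. Mrps18c, of the small subunit, had 649 and 628 in WT and 5163 and 1521 in KO (2.39 ± 0.85, edgeR adjusted p = 0.209), but Mrps5 of the same subunit had 2768 and 1829 in WT and 1470 and 228 in KO (-1.44 ± 0.83, edgeR adjusted p = 0.844). The 42 genes for mitochondrial import and cristae stood at -1.22 and -0.98 in WT and -0.65 and -0.89 in KO, with Chchd2 called. Their median fold changes were 0.15 and 0.19 above that of all genes, but -0.03 and -0.15 relative to it without WT replicate 1.

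Mitochondrially encoded transcripts went the other way, though unevenly. None of the 13 lay above the all-gene median, and the list stood at 0.83 and 0.86 in WT and -0.96 and 0.77 in KO, so that KO replicate 1 was apart from the other 3 libraries. Only mt-Atp6, a subunit of the ATP synthase, passed as lower (-4.17 ± 0.83, edgeR adjusted p = 0.000256). It had 24707 and 1730 in WT and 563 and 901 in KO and, at GV, 24679 and 3229 in KO, so replicates of 1 group were far apart. The annotation overlaps mt-Atp6 with mt-Atp8 and mt-Co3, which had 24135 and 13383 (mt-Atp8) and 26152 and 16215 (mt-Co3) in WT and 6734 and 10639 and 18891 and 19818 in KO.

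In protein turnover, the ubiquitin E2 enzymes and ubiquitin-like modifiers (58 tested) stood at -0.42 and -0.32 in WT and -0.05 and 0.44 in KO, 42 of them above the all-gene median. None passed in edgeR, 4 were higher at an unadjusted p under 0.05 and DESeq2 called 1. Sumo3, a ubiquitin-like modifier, had 463 and 514 in WT and 3800 and 1348 in KO (2.40 ± 0.86, edgeR adjusted p = 0.224). The 53 proteasome genes stood at -0.80 and -0.68 in WT and -0.44 and -0.66 in KO, and their median fold change was 0.02 above that of all genes (-0.17 to 0.17 when 1 library was left out). Psmd4, the ubiquitin receptor, had 12808 and 6700 in WT and 10435 and 2292 in KO.

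Genes of the 2-cell stage (18 tested) stood at -0.33 and -0.29 in WT and 0.45 and 1.25 in KO, with Zscan4e called. Of the 18, 11 were above WT in both KO libraries, where 22.1% of all genes tested were. Their median lay 0.44 above that of all genes at GV, 0.74 at GVBD and 0.78 at MII. Zscan4d had 88 and 95 in WT and 677 and 520 in KO (2.71 ± 0.95, edgeR adjusted p = 0.205), while Zfp750 had 8771 and 5129 in WT and 4034 and 977 in KO (-1.47 ± 0.77, edgeR adjusted p = 0.716). Lysosomal and vacuolar ATPase genes (44 tested) had a median 0.43 above all genes with no gene passing in edgeR, 2 higher at an unadjusted p under 0.05 and 1 called by DESeq2.

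Lists with medians below that of all genes included metabolism and zinc fingers. The 43 genes of glycolysis, pyruvate and the TCA cycle stood at -0.44 and -0.05 in WT and -0.80 and -0.95 in KO. Their called member, Pdk4, the kinase that shuts off pyruvate dehydrogenase, had 402 and 255 in WT and 23 and 0 in KO (-4.84 ± 1.15, edgeR adjusted p = 0.00645). The call ended in DESeq2 (adjusted p = 0.597) and held in 3 of 12 alternative settings. Pdk4 also stood at 0 in KO GVBD replicate 1 and at 684 in KO GVBD replicate 2. Of 301 Zfp zinc finger genes, 90 lay above the all-gene median. In both KO libraries 57 were below WT and 40 above, where 10.3% and 22.1% of all genes tested were. The list's median was 0.45 below that of all genes, although the 2 that passed, Zfp966 and Zfp973, were higher. Zfp82 had 358 and 150 in WT and 56 and 3 in KO (-3.11 ± 1.07, edgeR adjusted p = 0.18).

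Few genes of the machinery of maternal RNA clearance and of meiosis were called, but only 0.803% of all genes tested were. Among 61 RNA decay genes none passed in edgeR or DESeq2 and 1 was lower at an unadjusted p under 0.05. Their level was 0.43 and 0.39 in WT and 0.37 and 0.37 in KO. Cnot9, a subunit of the deadenylase complex CCR4-NOT, had 8490 and 4924 in WT and 13911 and 15777 in KO (1.15 ± 0.71, edgeR adjusted p = 0.905). The genes for cytoplasmic polyadenylation and dormancy (47 tested) stood at 0.12 and 0.11 in WT and 0.32 and 0.21 in KO. None of them passed in edgeR or DESeq2, and 3 were higher and 1 lower at an unadjusted p under 0.05. Their median fold change was 0.24 above that of all genes (0.04 to 0.23 when 1 library was left out). Of the 21 writers, erasers and readers of m6A, Alkbh5 passed. Ythdf2, a reader that recruits deadenylases, had 1598 and 1147 in WT and 3687 and 3172 in KO (1.32 ± 0.81, edgeR adjusted p = 0.895).

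Kinetochore and checkpoint genes (54 tested), the cell cycle engine with the anaphase promoting complex (45), cohesin and condensin (26) and DNA repair genes (92) held no gene that passed in edgeR or DESeq2. At an unadjusted p under 0.05 they held 2, 1, 0 and 2 higher genes and no lower one. Spindle and microtubule genes (123 tested) and actin cytoskeleton genes (48) held no gene that passed in edgeR, but DESeq2 called 2 and 1 as higher, and 7 and 3 were higher at an unadjusted p under 0.05. The actin list stood at -0.10 and -0.02 in WT and 0.15 and 0.17 in KO, and the spindle list at 0.25 and 0.24 in WT and 0.20 and 0.13 in KO. Birc5 (survivin), of the chromosomal passenger complex, had 10137 and 7867 in WT and 25850 and 18235 in KO (1.29 ± 0.69, edgeR adjusted p = 0.743). Cks2, a CDK1 binding protein, had 19186 and 13625 in WT and 10167 and 7373 in KO (-0.90 ± 0.70, edgeR adjusted p = 1). A p that misses the threshold does not show that these levels were equal, and with 2 libraries per group the standard errors near 0.7 leave room for 2-fold differences.

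Retained genes held a larger share of short coding sequences than all genes did. In these data the 1642 tested genes of under 200 codons made up 12.5% of 13107 coding genes outside the 2 sets, and 18 of the 36 retained coding genes present in both genotypes (50%) were that short, as were 4 of the 17 lost ones (23.5%). Called higher were 2.16% of genes of 100 to 149 codons and 0.104% of those of 1000 or more, and called lower were 0.166% and 0.208%. The 18 short retained genes and the genes called higher at 100 to 149 codons include the globins Hba-a1, Hba-a2, Hbb-bs and Hbb-bt. These had 142 or 147 codons and did not separate the genotypes. At 150 to 199 codons 0.751% were called higher and 0.751% lower. Median fold changes relative to all genes went from 0.23 at 100 to 149 codons to -0.18 at 1000 or more. WT libraries showed the steeper course from GV, with -0.79 and -0.65 at 100 to 149 codons and 0.40 and 0.39 at 1000 or more, where KO libraries had -0.38 and -0.21 and then 0.31 and 0.16. Short coding sequences are common among the ribosomal and respiratory genes, but those were left out of these counts. Genes of a length class are not independent replicates, and the same bins at GV had medians of -0.14 and -0.01.

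**Figure D4:**
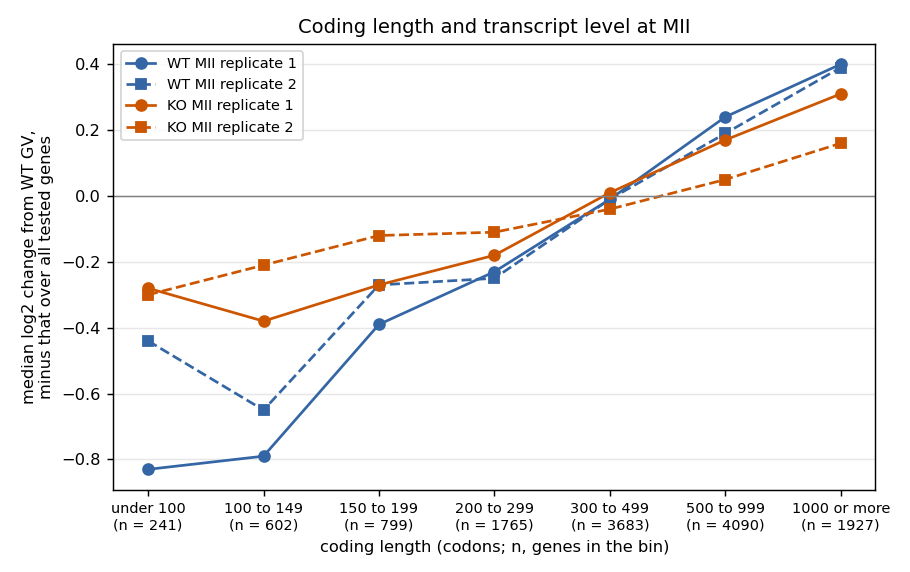
Median log2 change from the mean WT GV level, minus that over all tested genes, by coding length in codons in the 4 MII libraries, for protein-coding genes outside the ribosomal protein and oxidative phosphorylation sets. The WT lines run from -0.83 and -0.44 in the shortest bin to 0.40 and 0.39 in the longest, and the KO lines from -0.28 and -0.30 to 0.31 and 0.16.

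Genes of striated muscle were the most numerous group among the lost genes. In the list of sarcomere genes 33 were tested, 13 passed as lower and none as higher, and the list's median log2 fold change was -3.42, not taken relative to all genes, or -2.79 with genes at 0 in KO set to 3 counts per library. Relative to all genes it was -3.72. The 13 include parts of the thin filament (Tnnt2, Tnnc1, Actc1), the thick filament (Myh6, Myl2, Myl3, Mybpc3), the Z-disc (Tcap, Ldb3, Csrp3) and calcium handling (Pln), with Ckm, the muscle creatine kinase, and Ankrd1. Myh6, the alpha heavy chain of cardiac myosin, had 2072 and 619 in WT and 12 and 1 in KO (-7.69 ± 1.17, edgeR adjusted p = 2.88e-07). Myl3, a light chain of the same myosin, had 379 and 139 in WT and 0 and 0 in KO, at least 107-fold lower (edgeR adjusted p = 8.5e-07). Mybpc3 had 279 and 97 against 0 and 0, at least 78-fold lower, and Pln 269 and 122 against 0 and 0, at least 81-fold lower.

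Across the 12 libraries these genes were either present together or nearly absent together. At MII their summed scaled count was 6059 and 1910 in the WT libraries and 43.9 and 16 in the KO libraries. It was also low, 158 and 212, in WT GV replicate 1 and KO GVBD replicate 1, and lay between 3421 and 7625 in the other 6 libraries of both genotypes. Each of the 13 genes was above 10 scaled counts in all 8 libraries of the high kind, and in the 4 low libraries at most 2 of them were. The low level was thus not particular to KO or to MII, and none of the 13 passed between genotypes at GV or GVBD. Of the 7 striated muscle markers, 7 and 6 were above 3 counts in the WT libraries at MII and 4 and 2 in the KO libraries, but their summed levels overlapped (222 and 145 CPM in WT, 349 and 108 CPM in KO). Tnni3 and Ttn, which are in that marker list, did not have this form. Tnni3 had 1530 and 915 in WT and 8980 and 1620 in KO, and Ttn 1273 and 658 in WT and 2512 and 595 in KO. The part that muscle RNA from outside the oocyte had in this result was not tested, and in pools of this kind fewer cells of a type and less RNA per cell cannot be told apart.

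**Figure D5:**
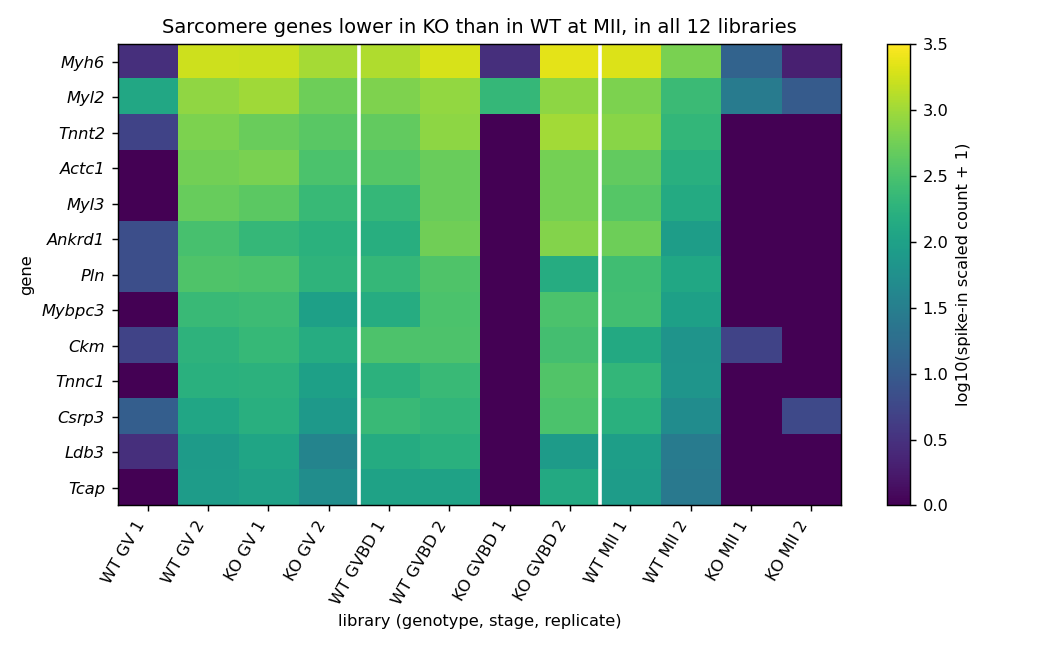
Level of the 13 called sarcomere genes in all 12 libraries, as log10(spike-in scaled count + 1) on the colour scale, with genes as rows and libraries as columns in the order GV, GVBD and MII. Both KO MII columns, WT GV replicate 1 and KO GVBD replicate 1 are dark for nearly all genes, and the other 8 columns are bright.

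Genes of heart and skeletal muscle outside the list followed the same libraries. Fabp3, the fatty acid binding protein of heart, had 254 and 140 in WT and 0 and 0 in KO (edgeR adjusted p = 2.61e-06), and Hspb7, a small heat shock protein of cardiac muscle, had 106 and 42 in WT and 4 and 0 in KO (edgeR adjusted p = 0.0253). With 9 more that were picked after their values were seen (Ankrd23, Xirp1, Xirp2, Lmod2, Hrc, Tmod1, Pygm, Myoz2 and Ckmt2), 11 such genes summed at MII to 1151 and 459 in WT libraries and to 3.73 and 0 in KO libraries. They summed to 26.6 in WT GV replicate 1 and 21.5 in KO GVBD replicate 1, the same low libraries. Together with the 13, these make up 24 of the 53 lost genes. Ucp1 and Thrsp, genes of brown fat and of lipid synthesis that were also picked after the fact, summed to 9.67 and 956 in WT and 49.5 and 0 in KO, so their calls rest on WT replicate 2.

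The remaining lost genes have other functions. Fut10, of the fucosyltransferase family, had 8193 and 4555 in WT and 45 and 18 in KO (-7.67 ± 1.05, edgeR adjusted p = 4.21e-09). It was low at GV in both genotypes, at 19 and 34 in WT and 59 and 7 in KO, and at GVBD had 8126 and 4256 in WT and 25 and 14 in KO (-8.33, edgeR adjusted p = 9.53e-07). KO thus lacked a level that WT libraries showed from GVBD on. This call held in 12 of 13 alternative settings.

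Dleu2, a long non-coding RNA that hosts microRNA genes, had 4092 and 3054 in WT and 449 and 164 in KO (-3.54 ± 0.89, edgeR adjusted p = 0.0135), with differences of -2.86 at GV (edgeR adjusted p = 0.125) and -2.74 at GVBD (edgeR adjusted p = 0.0098). Trim13, on the opposite strand over Dleu2, had 11073 and 6393 in WT and 13185 and 8466 in KO, and since no source states that strand was used, reads of the 2 genes cannot be told apart. Phc2, a subunit of Polycomb repressive complex 1, had 786 and 387 in WT and 56 and 33 in KO (-3.72 ± 1.01, edgeR adjusted p = 0.0327). Its level at MII was 141% of that at GV in WT and 5.72% in KO, and at GV and GVBD KO was not below WT (0.90 and 0.96, edgeR adjusted p = 0.289 and 0.468).

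Idua and Rsc1a1 separated the genotypes at MII but not the libraries before it. Idua, a lysosomal enzyme that degrades glycosaminoglycans, had 869 and 616 in WT and 11 and 11 in KO (edgeR adjusted p = 4.99e-05), yet 3 and 1161 in the KO GV libraries and 1419 and 16 at KO GVBD. Rsc1a1, a regulator of solute carriers, had 898 and 641 in WT and 5 and 5 in KO (edgeR adjusted p = 2.42e-06), yet 848 and 8 in WT at GV and 7 and 876 in KO at GV. Rsc1a1 is annotated inside Ddi2 on the same strand, and Ddi2 had 1620 and 771 in WT and 2749 and 1104 in KO. Replicates of 1 group could thus stand near 0 and at the WT MII level for both genes. Eif2ak2, the kinase activated by double-stranded RNA, was picked after its values were seen. It had 101 and 71 in WT and 4 and 0 in KO (-5.58, edgeR adjusted p = 0.0126) and was also lower at GVBD (-3.76, edgeR adjusted p = 0.00597).

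Whether these differences belong to MII was tested as the interaction of genotype and stage. Against GV, none of 20807 genes passed in edgeR (0%), 1197 did at an unadjusted p under 0.05, and DESeq2 called 152. Against GVBD, 13 of 20765 (0.0626%) passed, 12 toward a higher KO minus WT difference at MII and 1, Gm28043, toward a lower one. The 12 include Zfp966 and Gm7970, with both WT MII libraries at 0, and Hba-a1, Hbb-bt and Alas2, whose MII difference rests on KO replicate 1. Among the named retained genes, Pet100 had an adjusted p of 0.136 (edgeR) against GV and 0.104 against GVBD, and Cd9 had 0.408 and 0.52. Of the 46 genes named by rule, Zfp966 alone passed an interaction test. Of the 73 retained genes tested at GV, 2 passed as higher there, Dpf3 and Fam177a (0.0565% of all genes did), and of the 72 tested at GVBD, 12 passed as higher and 5 as lower (0.807% and 1.73% of all genes), the 5 being the blood genes above.

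The number of genes called changed with the library left out. In such fits the spread comes from the intact pair of the other genotype alone, so the change need not reflect the omitted library's levels. Without WT replicate 1, 3 genes passed as higher and 8 as lower, and without WT replicate 2, 0 and 19 did (edgeR, the lone library taken to vary like the other group). Without KO replicate 1, 86 passed as higher and 323 as lower, and without KO replicate 2, 419 and 123. With scaling by TMM in place of the spike-in, 23 genes passed as higher and 20 as lower, and 9 of the 15 abundant retained genes stayed under an adjusted p of 0.05 in edgeR.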

How the data were processed

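Polyadenylated RNA of pooled mouse oocytes was sequenced after template-switching amplification, although the extraction protocol in the labels describes another, bulk preparation. As stated by the study, the authors ran Cutadapt for trimming and Hisat2 for alignment to GRCm38 with the spike-in sequences added, filtered for uniquely mapped reads, and used StringTie. The deposited values are raw counts per gene, whole numbers with no normalization. The step that made them whole and the use of strand are not given in the sources used here. Unique mapping lowers genes with near-identical copies, and amplified reads without molecular identifiers are not independent molecules.

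Symbols matched 52073 of 56691 genes (91.9%), and coding lengths came from GENCODE M21, as the longest coding sequence per gene. Library sizes were set in proportion to ERCC totals, low genes were removed with filterByExpr, and 2-sided quasi-likelihood tests were run in edgeR 4.0.16 (R 4.3.3) with Benjamini-Hochberg adjustment over all genes tested, called at an adjusted p under 0.05 and at least 2-fold. Interactions used the 8 libraries of 2 stages. The pipeline was tested on simulated data. Alternatives were other scalings and filters, DESeq2 1.42.0, all 12 libraries, replicate blocks and leaving out each library.

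Genes are named by rule: called genes outside the 2 sets with a regular symbol and groups that do not overlap, being the 15 higher and 10 lower with the highest mean level among those above 3 counts in both genotypes, 6 and 6 among those at or under 3 counts in 1 genotype, called list members, Alkbh5, and up to 3 highest and 2 lowest members of each list described. The comparison, the lists and the rule were chosen with earlier results of these data known.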

Additional observations from a re-analysis of the deposited data

Results flagged for a closer look

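Zfp966 was set apart because its difference between the genotypes at MII differed from that at GVBD. The interaction was 10.98 on the log2 scale (edgeR adjusted p = 0.0293), a fitted value that depends on the zero counts in both WT MII libraries and is no bound on the fold. At GVBD the difference was -0.06 (edgeR adjusted p = 0.979), and against GV the interaction did not pass (edgeR adjusted p = 0.187). KO GV replicate 2 stood at 37 scaled counts where replicate 1 stood at 353.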

How the results depend on the processing

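The number of genes called between KO and WT at MII was 141 and depended on scaling and on single libraries. It was 43 with TMM, 2 with median-of-ratios scaling (Alkbh5 and Fut10), 37 with at least 10 counts in every library, 346 in DESeq2, and 219 (190 higher, 29 lower) with all 12 libraries in one model. It ranged from 11 to 542 when 1 library was left out: 11 and 19 without WT replicate 1 or 2, 409 and 542 without KO replicate 1 or 2. TMM shared 34 calls with the spike-in scaling and DESeq2 128. The interaction against GV (0 genes) gave 71 with TMM, 119 with median-of-ratios, 346 with no filter, 63 with at least 10 counts, 152 in DESeq2, 2 with all libraries and 0 to 285 leaving out 1. That against GVBD (13 genes) gave 29, 31, 195, 38, 125, 2 and 0 to 227 under the same settings. The cause of these changes was not tested. Replicate numbers are shared by labels, but no source ties a number to a batch. Same-numbered MII libraries deviated with a correlation of -0.13 over 17566 genes. A correlation over genes cannot detect a shift common to all genes of a library. Counts outside the ERCC sequences, per ERCC count, were higher in replicate 1 than in replicate 2 in both genotypes at GV, GVBD and MII. The cause of that shift was not tested. With the replicate block 4 genes were called at MII (Alkbh5, Fut10, Myh6 and Rsc1a1; 2519 at an unadjusted p under 0.05), 0 against GV and 0 against GVBD. A crossed block, added after seeing the data, called 0 genes in edgeR (278 unadjusted). Of the 46 named genes none changed direction in a setting that tested it (22 of them reached 10 counts in each library and were tested under that filter). Named genes were chosen for groups that do not overlap, so leaving out 1 library could not reverse their direction at the same scaling. Their constant direction is therefore no separate evidence. In DESeq2 45 of the 46 were called, and with TMM 23 were. Of the 41 list medians, 19 moved by more than the spread between replicates without KO replicate 1, 8 without KO replicate 2, 13 without WT replicate 1 and 9 without WT replicate 2. The 2 libraries per group limit the precision.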
